A study of Mus musculus with 12 samples.

Results

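Control 5fC clusters are stretches of the genome in which 3 or more 5-formylcytosine (5fC) bases were listed close together in mouse embryonic stem cells that keep the glycosylase TDG. They were chosen from the control list alone. Consecutive control sites on chromosomes 1 to 19 were joined where they lay no more than 1000 bases apart, and each joined stretch with 3 or more control sites, from its first to its last site, is a cluster. This gave 1415 clusters among 24690 control regions, the rest being 4630 regions of 2 sites and 18645 regions of 1 site. The clusters held 4709 (14.4%) of the 32614 autosomal control sites. The number, spacing and width of the control sites therefore follow from the choice and are given as a description. The knockout positions had no part in it.

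The series mapped 5fC in 2 embryonic stem cell lines of strain C57BL/6-ICR, grown without feeder cells in serum and LIF: a knockout line, Tdg -/-, and a floxed control line, Tdg fl/fl, in which the gene carries recombination sites on both alleles. The 5fC bases were coupled to azido-indandione, an agent that reacts with the formyl group so that the base is read as T in place of C, and were pulled down through biotin. The labels give 12 libraries: 2 replicates of each of 3 library types (unlabelled input, labelled input and pull-down) in each genotype. The values used here are 1 list of single-base positions per genotype on the mouse build mm9, with no read number, 5fC level, strand or replicate, so the depth behind a site is unknown and no difference between genotypes has a replicate check or a p-value. The genotype of each list was read from its name. Whether either line came from 1 clone is not stated in the labels. Neither the Tdg status nor the cell type could be checked in lists of positions.

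TET enzymes oxidise 5-methylcytosine stepwise to 5-hydroxymethylcytosine, 5fC and 5-carboxylcytosine. TDG cuts 5fC and 5-carboxylcytosine out of DNA, and base excision repair then restores an unmodified cytosine, so that cells without TDG keep 5fC that control cells remove. In mouse embryonic stem cells 5fC is known to lie mostly in CpG dinucleotides, where the cytosines of opposite strands are neighbouring positions, and to be frequent at active and poised enhancers.

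Most clusters were small. Of the 1415, 1082 had 3 control sites, 246 had 4, 59 had 5 and 28 had 6 or more. Their median width was 409 bases, with the middle of the distribution between 158.5 and 818 bases, the narrowest at 5 and the widest at 2529. The median follows the rule: it was 217 bases with sites joined at 500 bases, 825 with sites joined at 2000 bases and 722 for clusters of at least 4 control sites. Clusters of 3 sites had a median width of 338 bases and those of 6 or more one of 1119.5 bases. Just below the threshold, regions of 2 control sites had a median width of 130 bases. Neighbouring control sites of a cluster lay a median of 114 bases apart, and 551 of the 3294 gaps (16.7%) were over 500 bases. Gaps were common on both sides of the joining distance: 211 gaps between control sites measured 901 to 1000 bases and were joined, and 177 measured 1001 to 1100 bases and were not. In 91 clusters at least 1 gap was in the first of these ranges.

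**Figure D1:**
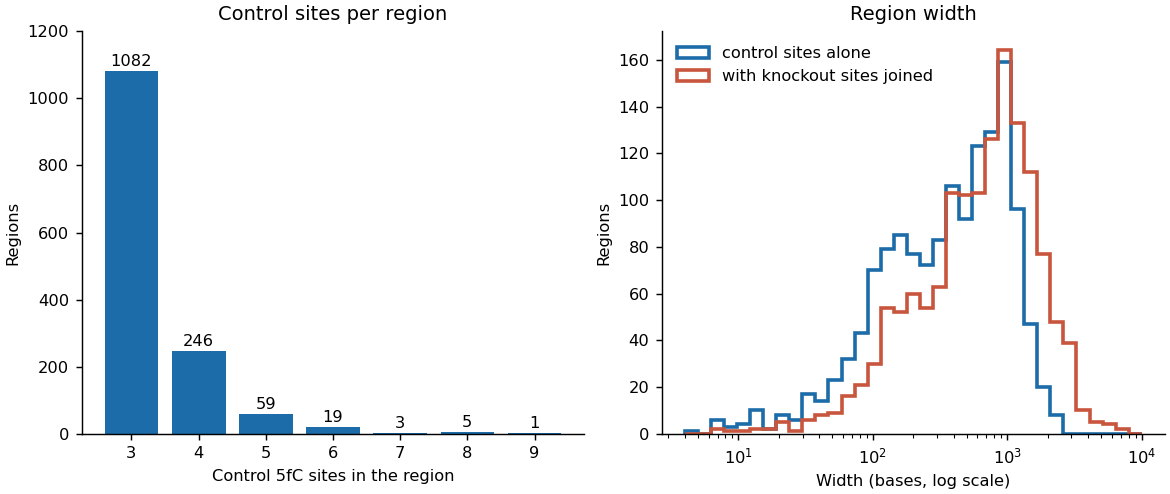
Left, number of clusters (vertical axis) by number of control sites (horizontal axis), with the count above each bar: 1082 of the 1415 clusters had 3 control sites. Right, distribution of cluster width in bases on a log axis, from control sites alone (blue, median 409 bases) and after knockout sites within 1000 bases were joined (red, median 697 bases); the vertical axis counts clusters.

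Clusters were found on all 19 autosomes. Per 1000 control sites of a chromosome there were 43.0 ± 7.19 clusters (mean ± SD, n = 19 autosomes). Chromosome 13 had the lowest value, 29.7, and chromosome 17 the highest, 59.2. Chromosome 11 had the most, 124, and chromosome 16 the fewest, 31. On chromosome 17, 19.1% of the control sites lay in clusters, and on chromosome 16, 9.27%. The nearest other cluster was a median of 198 kb away. Only 82 clusters (5.80%) had another within 10 kb, and 502 (35.5%) had one within 100 kb.

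The clusters with the most control sites show what the lists hold. The cluster with 9 control sites, the most of any, was on chromosome 6 from 125309138 to 125311151. Counted in bases from its first control site, control 5fC was listed at 0, 29, 979, 1223, 1294, 1356, 1858, 1985 and 2013. Knockout 5fC was listed at 7 of these 9 bases, all but 1223 and 2013, and at 5 further bases, 980, 1254, 1269, 1357 and 1986. Of those 5, the bases at 980, 1357 and 1986 were each next to a control base, as the opposite strand of a CpG would be.

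The cluster with the most knockout sites was on chromosome 11 from 99004850 to 99006421, with 8 control and 17 knockout sites. The shared bases were at 0, 268, 269, 1474, 1559 and 1571. The control list alone had 1145 and 1426. Knockout cells had 11 further bases, at 228, 229, 371, 522, 1055, 1098, 1407, 1465, 1484, 1501 and 1502. Some of the added sites lay in the long gap between the control sites at 269 and 1145, and others in the dense end of the cluster. Between 522 and 1055 neither list had a site.

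Another cluster of 8 control sites, on chromosome 17 from 86216414 to 86217679, was self-contained. Shared bases lay at 0, 75, 1251 and 1258, control bases alone at 337, 762, 1252 and 1265, and knockout bases alone at 1, 429, 443, 444, 535, 841, 1069 and 1243. No knockout site was listed within 10 kb outside: the nearest were 15738 bases below and 27007 bases above. The opposite balance was seen on chromosome 3 from 103538110 to 103540342, where knockout cells had fewer listed sites than control cells, 5 against 8. Only the bases at 0 and 2231 were shared. Control bases at 728, 1085, 1332, 2078, 2131 and 2232 were not in the knockout list, although knockout bases at 1333 and 2132 were next to control bases, and there was 1 more at 193.

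**Figure D2:**
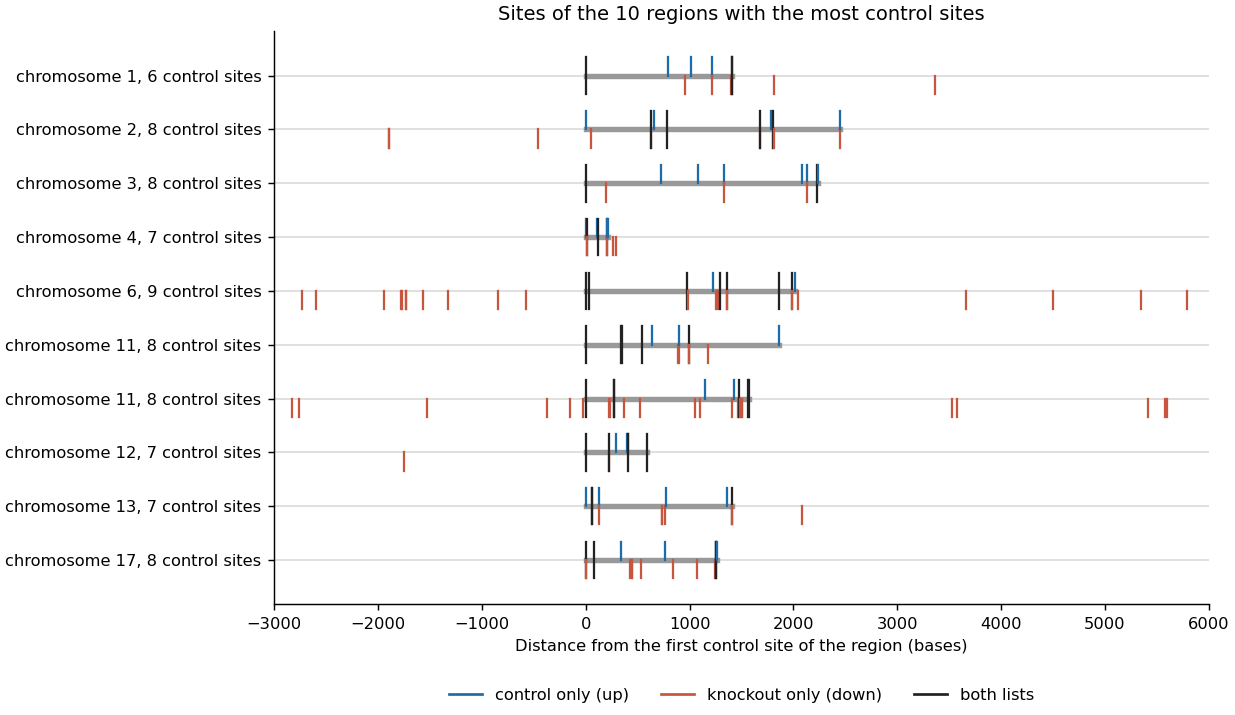
Positions of listed 5fC sites in the 10 clusters with the most control sites, in bases from the first control site of each (horizontal axis); each row is 1 cluster and the grey bar is its span. On the bar, blue ticks point up for sites in the control list alone, red ticks point down for the knockout list alone, and black ticks mark bases in both. Outside the bar, red ticks mark every knockout site, also where the control list holds the same base, and control sites are not drawn. The row of chromosome 17 has no knockout tick outside the bar, while that of chromosome 6 has several on both sides.

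The first question was how many knockout sites lay between the end sites of a cluster. There were 4045, which is 2.92% of the autosomal knockout list, in 750 kb of total width. A cluster held 2.86 knockout sites on average (95% counting interval 2.77 to 2.95), with a median of 3 and a highest value of 17. At least 1 knockout site was inside 1315 of the 1415 clusters (92.9%, exact Clopper-Pearson 95% interval 91.5 to 94.2), against 51.4% of all control regions. That background is lowered by regions of 1 site, in which only the site itself can match. Regions of 2 sites, the nearest in kind, held 1.46 knockout sites each (1.43 to 1.50) and 78.4% held at least 1. Clusters of 3 control sites held 2.51 (2.41 to 2.60), those of 4 held 3.65 (3.42 to 3.90), those of 5 held 4.41 (3.89 to 4.98) and those of 6 or more held 6.14 (5.26 to 7.13). All 59 clusters of 5 control sites and all 28 of 6 or more had a knockout site inside, as had 239 of 246 with 4 and 989 of 1082 with 3. More control bases and more width raise these numbers by themselves. Per kb of region the number did not rise in this way. It was 6.21 for regions of 2 sites, and 5.62, 5.06, 4.66 and 5.22 for clusters of 3, 4, 5 and 6 or more.

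Although the knockout list was the longer, with 138649 autosomal sites, most clusters did not gain listed sites inside. In 768 clusters (54.3%) there were fewer knockout than control sites between the end sites, in 290 (20.5%) as many, and in 357 (25.2%) more. Of the 18645 regions of 1 site, 10900 had fewer and 7745 (41.5%) as many, and more was not possible there. Having fewer is therefore not particular to clusters. The split was not counted for the remaining control regions. The clusters were chosen for a high number of control sites, which by itself lowers the knockout number relative to the control number. Per kb of cluster there were 5.40 knockout sites (5.23 to 5.56) and 6.28 control sites. Over the span of the autosomes the lists held 0.0575 and 0.0135 sites per kb.

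**Figure D3:**
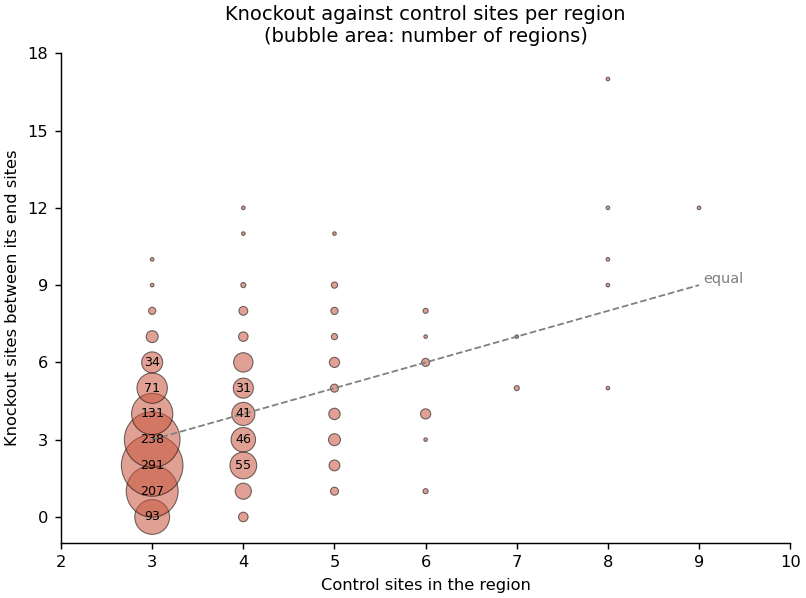
Knockout sites between the end sites of a cluster (vertical axis) against its control sites (horizontal axis); the area of a bubble is the number of clusters, printed where it is 30 or more, and the dashed line marks equal numbers. Most clusters lie below the line, and the cluster with 8 control and 17 knockout sites stands highest.

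Knockout sites inside clusters were of 3 kinds. Of the 4045, 2146 (53.1%, 51.5 to 54.6) were at a control base, 469 (11.6%) were 1 base from a control site, and 1430 (35.4%, 33.9 to 36.8) were elsewhere in the cluster. The sites elsewhere lay a median of 57 bases from the nearest control site and at most 494 bases. Without the sites at or next to a control base, a cluster held 1.01 knockout sites (0.959 to 1.06).

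Width separated the clusters further. The 354 narrowest, of 5 to 158 bases, had 2.11 knockout sites inside (1.96 to 2.27), of which 0.514 (0.442 to 0.594) were not at a control base. The 352 widest, of 819 to 2529 bases, had 3.98 (3.78 to 4.20), of which 2.42 (2.26 to 2.59) were not at a control base. Per kb the order was the opposite, 23.7 knockout sites in the narrowest and 3.43 in the widest, as it was for the control sites that define the width, 34.7 and 3.16. Across the 1415 clusters, knockout sites inside had a Spearman correlation of 0.30 with the number of control sites and of 0.35 with width. These are correlations across regions of the same pair of lists, given as a description.

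The next comparison took the bases outside the end sites, where the rule leaves no control site within the first kb. In that first kb on each side there were 2097 knockout sites, 0.741 per kb (0.710 to 0.773), which is 12.9 times the autosomal mean. The density was 0.350 per kb (0.328 to 0.372) at 1 to 2 kb, 0.302 at 2 to 3 kb, 0.283 at 3 to 4 kb, 0.303 at 4 to 5 kb and 0.273 at 5 to 6 kb. It was 0.263 at 6 to 7 kb, 0.248 at 7 to 8 kb, 0.264 at 8 to 9 kb and 0.241 (0.224 to 0.260) at 9 to 10 kb, still 4.19 times the autosomal mean. Lower and higher sides had 0.734 and 0.748 per kb in the first step, a difference within counting error. Within the first kb the sites were close to the end: 843 of the 2097 lay in the first 100 bases, at 2.98 per kb (2.78 to 3.19), against 1.09 at 100 to 200 bases and 0.346 at 900 to 1000 bases.

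Control sites outside clusters could be counted from 1 kb on. They numbered 254 at 1 to 2 kb and 173 at 9 to 10 kb, or 0.0898 and 0.0611 per kb. There were 3.90 knockout sites per control site in the first of these steps and 3.95 in the last. Round regions of 1 site, control sites were less dense in the same steps, at 0.0687 and 0.0463 per kb. There were 4.25 knockout sites per control site there in both. The end steps do not rank the classes. Round clusters the value ran from 3.65 to 4.77 over the steps from 1 to 10 kb. Round regions of 1 site it ran from 4.05 to 4.26, within the range of clusters.

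Regions of 1 control site had another profile. In the first kb, clusters had 0.837 times the knockout density of regions of 1 site (0.8004 to 0.875), 0.741 against 0.885 per kb, and the density was lower for clusters on 17 of 19 autosomes. From 1 to 10 kb the order was reversed: clusters had 0.281 knockout sites per kb and regions of 1 site 0.222, a ratio of 1.27 (1.24 to 1.30), higher for clusters on all 19 autosomes. Each of the 9 steps from 1 to 10 kb had a ratio between 1.20 and 1.40 with an interval above 1. Against regions of 2 sites the first-step ratio was 0.973 (0.926 to 1.02), an interval that includes 1, and the ratio from 1 to 10 kb was 1.19 (1.16 to 1.22). The steps run outward from the end sites, so knockout sites between the control sites of a cluster are not in them. Knockout sites were also counted within 1 kb on either side of each control site, leaving out the same base. There were 3.59 per control site in clusters, 2.47 in regions of 2 sites and 1.77 in regions of 1 site. Neighbouring control sites of a cluster count some of the same knockout sites, so the interval of the first value, 3.54 to 3.64, is too narrow. The count also takes in knockout sites at the other control bases of a cluster. A region of 1 site has no such bases, so the rule by itself raises the value of clusters.

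**Figure D4:**
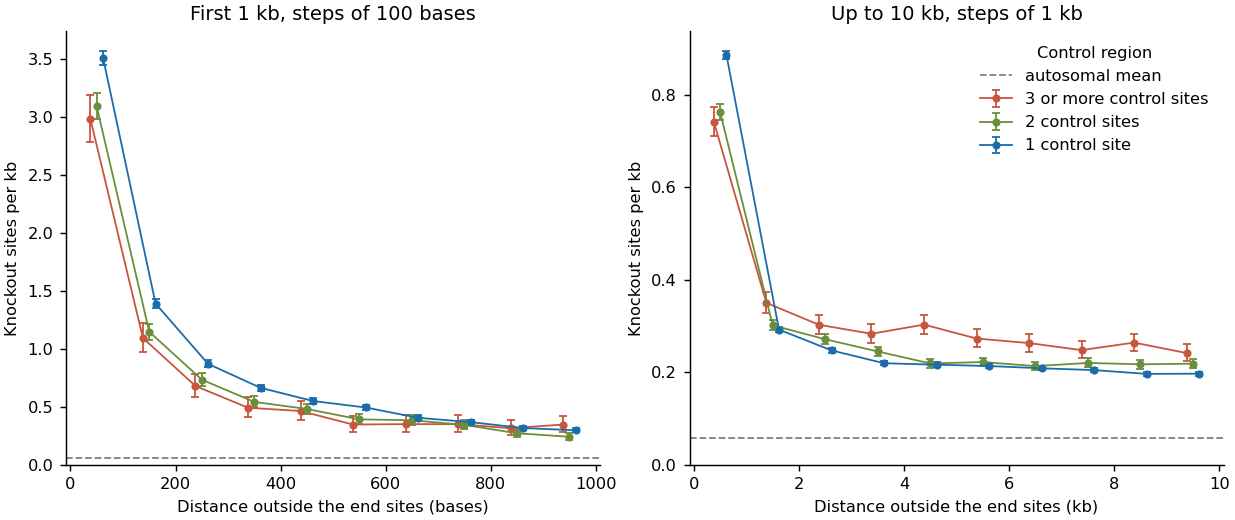
Knockout sites per kb (vertical axis) by distance outside the end control sites (horizontal axis, left in steps of 100 bases over the first 1000, right in steps of 1 kb to 10 kb), both sides together. Red shows clusters of 3 or more control sites, green regions of 2 and blue regions of 1; bars are 95% counting intervals, points are shifted sideways so as not to overlap, and the dashed line is the autosomal mean of 0.0575. Clusters are lowest in the first 1-kb step, at 0.741, and highest in the later ones.

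Wide clusters lay in richer surroundings than narrow ones. From 1 to 10 kb outside, the 352 widest clusters had 0.352 knockout sites per kb (0.337 to 0.367) and the 354 narrowest 0.226 (0.215 to 0.238). In the first kb the values were 0.837 (0.770 to 0.907) and 0.685 (0.625 to 0.749). As a description across the 1415 clusters, the Spearman correlation of knockout sites within 1 kb on the lower and higher side was 0.03, and that of sites inside with sites within 1 kb outside was 0.05.

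Joining the knockout sites to the clusters gives the extension. At least 1 knockout site lay within 1 kb outside 965 clusters (68.2%), against 77% of all control regions. Of the 1415 clusters, 679 (48.0%) were extended on 1 side, 286 (20.2%) on both sides, against 23.3% of all control regions, and 450 (31.8%) on neither. The median width went from 409 to 697 bases, which can only grow when sites are added, and the median added length was 66 bases. With control sites joined at 2000 bases the joined median was 1136 bases. In 173 clusters (12.2%) more than 1 kb was added, against 12.1% of all control regions, and in 3 more than 5 kb. The joined stretches held a median of 4 knockout sites and 3 control sites. Knockout sites linked 64 clusters (4.52%) to control sites of another region, against 3.99% of all control regions. Both of these shares of clusters were near those of all control regions. The 1415 clusters fell into 1413 joined stretches, since knockout sites bridged 2 pairs of clusters. For regions of 2 sites the median added length was 91 bases, and for regions of 1 site 165 bases.

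Both bridged pairs were among the longest joined stretches. On chromosome 12, clusters from 20232853 to 20233413 and from 20234656 to 20235288, 1243 bases apart, lay in a joined stretch from 20232853 to 20239823, which held 15 control and 35 knockout sites. In the first of them the bases at 0, 54, 58, 59 and 560 were shared, the base at 55 was in the control list alone and those at 39 and 40 in the knockout list alone. In the second, bases at 0, 119, 174, 386 and 632 were shared, 590 was a control base alone and 184, 387 and 397 were knockout bases alone. All of the added length of the first cluster, 6410 bases, lay above it, the longest extension on 1 side of any cluster. The nearest knockout site below it was 189743 bases away.

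On chromosome 6, a cluster of 3 control sites from 125307156 to 125307573 and the cluster of 9 described above lay 1565 bases apart and were joined into a stretch from 125304946 to 125311181 with 12 control and 27 knockout sites. The widest cluster, on chromosome 1 from 184018555 to 184021083, had 5 control and 7 knockout sites in 2529 bases. Its joined stretch of 6033 bases held 9 control and 18 knockout sites and added 1925 bases below and 1579 above.

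Seen from the knockout list, clusters took a small part of the dense stretches. The same joining gave 19934 knockout regions of 3 or more sites, of which 1053 (5.28%) overlapped a control cluster. The share rose with size, from 2.55% (2.24 to 2.88) of regions of 3 knockout sites to 12.8% (11.5 to 14.2) of those of 6 to 9 and 25.4% (20.7 to 30.6) of those of 10 or more. Larger regions cover more bases, with median widths of 247, 1056 and 2178 bases, which by itself raises the chance of an overlap. Knockout regions that overlapped a cluster had a median of 5 sites and a width of 653 bases, the 7853 that held control sites but overlapped no cluster a median of 4 sites and 494 bases, and the 11028 that held no control site a median of 3 sites and 364 bases. The share of knockout regions with any control site rose with size too, from 35.5% for 3 knockout sites to 65.3% for 6 to 9 and 86.5% for 10 or more. In the other direction, 1050 clusters (74.2%) overlapped a knockout region of 3 or more sites, against 37% of all control regions. Of the 1415, 574 clusters (40.6%, 38.0 to 43.2) lay wholly inside one, against 32.1% of all control regions, 35.6% of regions of 2 sites and 30.6% of regions of 1 site. A further 476 (33.6%) overlapped one and reached beyond it, against 4.95% of all control regions and 16.1% of regions of 2 sites. The remaining 365 (25.8%) overlapped none, against 63% of all control regions and 48.3% of regions of 2 sites. Clusters cover more bases than those regions, which by itself raises overlap.

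Sharing of single bases was compared last. Of the 4709 control sites in clusters, 2146 (45.6%, 44.1 to 47.0) were listed at the same base in knockout cells, against 42.1% (41.1 to 43.1) of sites in regions of 2 and 41.5% (40.8 to 42.3) of regions of 1. The share in clusters was higher than in regions of 1 site by 4.03 percentage points (2.44 to 5.62) and on 17 of 19 autosomes, and higher than in regions of 2 by 3.48 points (1.74 to 5.22). These intervals treat sites as independent, which sites of a cluster are not. More knockout sites were also counted round the control sites of clusters (3.59 against 1.77 within 1 kb). That count itself holds the shared bases at the other control sites of a cluster. Outward from the end sites, the first kb had fewer for clusters, 0.741 against 0.885 per kb. The part of knockout density in the sharing was not tested. By number of control sites the share was 45.7% for 3 sites, 44.7% for 4, 44.7% for 5 and 49.5% (42.0 to 56.9) for 6 or more, with overlapping intervals. It was higher in narrow clusters, 51.7% (48.7 to 54.7) in the 354 narrowest and 42.5% (39.8 to 45.2) in the 352 widest. Inner sites were shared in 46.8% of cases and end sites in 44.8%, a difference of 2.01 points whose interval of -0.90 to 4.92 includes 0.

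Adjacent control bases bore on this comparison. In 353 clusters (24.9%) 2 control sites were neighbours, and such pairs count toward the 3 sites of the rule. Of the 726 control sites in such pairs, 55.6% (51.9 to 59.3) were shared, and of the other 3983, 43.7% (42.2 to 45.3). Without the paired sites the difference from regions of 1 site was 2.20 points (0.501 to 3.89), and with each pair counted as 1 site it was 1.87 points (0.194 to 3.56). With a knockout site on the same or an adjacent base counted as a match, it was 6.50 points (4.90 to 8.09). Paired control sites outside clusters were shared in 52.9% of cases (49.8 to 56.0). The shares in narrow and wide clusters were not counted without the paired sites, so the part of pairs in that difference was not tested.

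Per cluster, 1189 (84.0%, 82.0 to 85.9) had at least 1 shared base, against 48.4% of all control regions, which again mostly have 1 site. The number of shared bases was 0 in 226 clusters, 1 in 500, 2 in 466, 3 in 188, 4 in 28 and 5 in 5 clusters, and 1 cluster each had 6 and 7. All control sites were shared in 141 clusters (9.96%), against 35.5% of all control regions, 18.9% of regions of 2 sites and 41.5% of regions of 1 site. With more control sites in a region, fewer regions can have every base shared, as more can have at least 1. Of the 226 with none, 126 had a knockout site inside at another base, 70 had none inside but at least 1 within 1 kb outside, and 30 had none in either place. A knockout site lay next to a control base in 70 of the 226. Only 11 clusters (0.777%), each of 3 control sites, had no knockout site inside or within 10 kb, against 3.59% of all control regions.

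**Figure D5:**
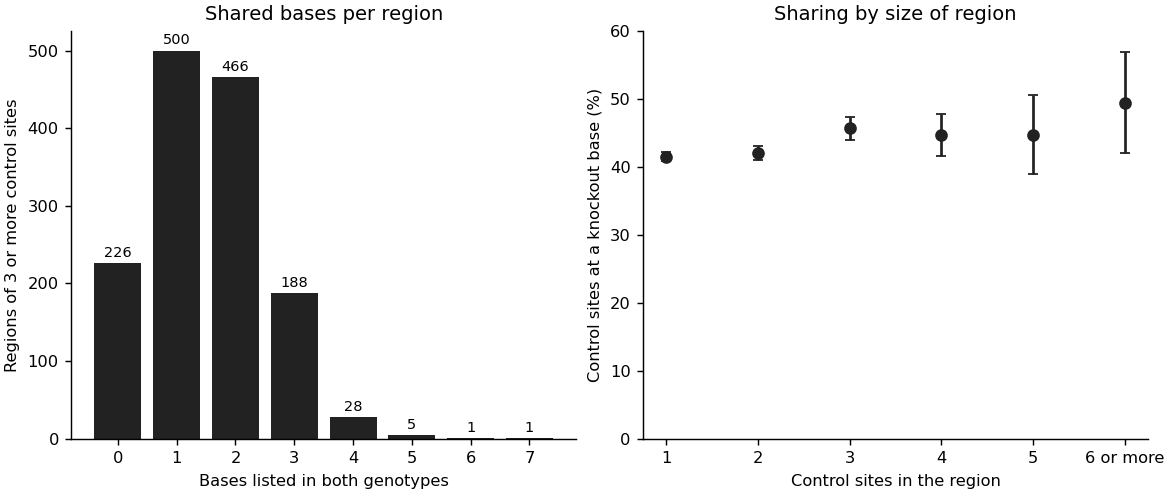
Left, number of clusters (vertical axis) by number of bases listed in both genotypes (horizontal axis), with counts above the bars. Right, percentage of control sites listed at the same base in knockout cells by the number of control sites in the region, with exact 95% intervals: 41.5% for regions of 1 site and 45.7% for clusters of 3.

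Some clusters were shared base for base, and some hardly at all. On chromosome 6 from 111437875 to 111438309, all 5 control bases, at 0, 14, 94, 309 and 434, were in the knockout list, with 1 more knockout base at 13, next to a shared one. This cluster stood alone: the nearest knockout site outside was 2285380 bases below and 717355 bases above. At the other end, a cluster of 4 control sites on chromosome 4 from 148298472 to 148299831 held 12 knockout sites and shared 1 base, the first. Its control bases at 348, 1271 and 1359 were not listed in knockout cells, which had 1, 54, 82, 341, 713, 725, 917, 924, 925, 957 and 1328 instead. The compact cluster of 7 control sites on chromosome 4 from 86283535 to 86283745, 211 bases wide, shared the bases at 9, 117 and 201. Control bases at 0, 104, 209 and 210 were not in the knockout list, and knockout cells had 10 and 202 beside shared bases.

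Knockout sites inside clusters more often came as adjacent bases than knockout sites outside them. Of the 4045, 1197 (29.6%, 28.2 to 31.0) had another knockout site 1 base away, against 22.9% (21.1 to 24.7) in the first kb outside, 20.3% (19.4 to 21.3) at 1 to 10 kb and 19.2% over the rest of the autosomes. The share inside was 10.4 percentage points above that elsewhere (8.97 to 11.8). For knockout sites at a control base it was 30.5% (28.5 to 32.5) and at other bases of a cluster 28.6% (26.6 to 30.7), with overlapping intervals. Knockout sites were also denser inside clusters, and the part of density in this share was not tested. In the first kb outside regions of 1 control site, the share was 21.1% (20.7 to 21.5). Among control sites, 15.4% in clusters and 3.58% elsewhere had an adjacent control site, which the rule itself favours.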

How the data were processed

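The authors deposited 1 list of 5fC positions per genotype, and every row names a chromosome and a single base (start and end are equal). The unit is a position, with no count, level, score or strand beside it. Bismark 0.8.3, HOMER and build mm9 stand in the submitters' processing notes with no step attached to them. How sites were called, how inputs were used and whether replicates were pooled is not given in the sources used here. Positions are printed as listed, since their first base (0 or 1) is unstated too. Lists differ in length, and a longer list alone raises every knockout number.

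Regions were built with numpy 2.4.6 under Python 3.11.15, intervals came from scipy 1.17.1 and plots from matplotlib 3.10.9. Steps of 1 kb run outward from the end sites, both sides summed, up to 10 kb. Shares have exact Clopper-Pearson 95% intervals, densities exact Poisson intervals, ratios exact conditional intervals, and differences of shares normal intervals. All cover counting error only and treat sites as independent. No p-value is given: 1 list per genotype holds no replicates, and clusters are not replicates. The scripts were tested on simulated lists.

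Clusters, comparisons and alternatives were chosen with earlier results of these data known. Regions described singly are the 10 clusters with the most control sites, the 5 widest, and the 5 with the most knockout sites inside, shared bases and joined width, from which those with the clearest site patterns were taken after their values were seen. The gene and promoter tables used here are on GRCm38, so clusters were not tied to genes and no sequence is shown.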

Additional observations from a re-analysis of the deposited data

Results flagged for a closer look

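Sites off the autosomes entered no comparison of clusters, and their counts are given without a test. The X chromosome had 56 control and 306 knockout sites, and 0 control regions of 3 or more sites. By counting error a count of 0 allows up to 3. Sequence not placed on a chromosome position had 15 control and 72 knockout sites and held 2 control regions of 3 or more sites.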

How the results depend on the processing

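No paired analysis was possible because neither list separates its replicates, and leaving out replicates could not be run for the same reason. Of 58 alternatives over 11 results, 31 left the value within its counting interval or, for the number of clusters, within 1.5 times, and none turned a direction. The 20 alternatives for the ratios to regions of 1 site and for the difference in sharing were chosen after seeing the data. Leaving out the 10 clusters with the most control sites moved no value out of its interval. Why the others moved was not tested beyond what each choice sets itself, such as width by joining distance.

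Joining at 500 bases gave 1048 clusters, a median width of 217 bases (471.5 with knockout sites joined), 2.47 knockout sites inside, 0.794 per kb in the first step and a 1 to 10 kb ratio of 1.15. Joining at 2000 bases gave 1877 clusters, 825 bases (1136 joined), 3.47 inside, a first-step ratio of 0.887 and a 1 to 10 kb ratio of 1.37. With at least 4 control sites the values were 722 bases (1003 joined), 3.997 inside, 0.797 per kb, and ratios of 0.900 and 1.45. With adjacent bases counted as 1 site they were 1177 clusters, 495 bases (769 joined), 2.58 inside, 38.9% shared and a difference in sharing of 1.87 points. That count keeps the lower base of a pair, which by itself loses matches to the upper base. Without paired control sites the difference was 2.20 points, and with a knockout site on the same or an adjacent base it was 6.50, with 55.5% of cluster sites matched. The 677 clusters with no other control site within 10 kb had 0.668 knockout sites per kb in the first step. Without knockout sites at or next to a control base, 1.01 lay inside. Knockout sites joined at 500 bases gave a joined width of 554 bases. Read depth is unknown and limits every count by an amount not measured here.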
